A study of Mus musculus with 2669 samples.

Results

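Single mouse cells of the medial ganglionic eminence (MGE) at embryonic age E14.5 were compared with MGE cells at E12.5 on the later microfluidic chips of the study, those numbered 160 and above. The chip number was read from each cell's title. Cells needed at least 1000 detected genes and 50000 read counts, which left 1173 cells on 17 chips, out of 2669 cells on 37 chips in the whole series. The E14.5 group held 247 cells on 4 chips: chip 194 carried 79 cells of the ventral MGE (vMGE), and chips 191, 192 and 193 carried 37, 49 and 82 cells of the dorsal MGE (dMGE). The E12.5 group held 926 cells on 13 chips, 7 of vMGE (482 cells) and 6 of dMGE (444 cells). Both groups came from CD1 embryos of timed pregnancies, and the labels name no transgene, mutation or treatment for either. They also name no embryo or litter, so the chip was the replicate, and every p-value measures chip-to-chip spread alone, which may be technical in part. Cells were captured on Fluidigm C1 chips of the small-cell format, poly-A RNA was converted to full-length cDNA with Smart-seq v4, and Nextera libraries were read single-end.

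The MGE is a germinal zone of the ventral forebrain that forms most cortical interneurons and neurons of the pallidum and striatum. Radial glia divide at the ventricle under Notch signalling, intermediate progenitors divide once more in the subventricular zone, and their daughters leave as GABAergic neurons. Nkx2-1 specifies MGE identity, Lhx6 and Sox6 act after it in migrating interneurons, and Lhx8 acts in the cholinergic lineage of the ventral part. In neural progenitors elsewhere in the forebrain, Hmga2, Lin28b and Igf2bp1 mark early stages and Nfia and Nfib later ones. In counts summed over all cells of a chip, fewer cells of a type and less RNA per cell cannot be told apart.

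The chips of the 2 ages differed in more than age. Median detected genes per cell were 2406, 2040, 2669.5 and 2202 on E14.5 chips 191 to 194, and between 1512 and 4656.5 with a median of 3918 on the E12.5 chips. The means were 2329 ± 272 genes (SD, n = 4) at E14.5 and 3361 ± 1227 (SD, n = 13) at E12.5, a difference within the spread between chips (two-sided exact permutation test, p = 0.113, adjusted over 3 measures 0.169; the smallest p possible was 0.000420). Median counts per cell averaged 698700 at E14.5 and 954000 at E12.5 (exact p = 0.106, adjusted 0.169), and the mitochondrial share 2.38% at E14.5 and 1.95% at E12.5 (exact p = 0.411). Summed counts per chip ran from 34631663 to 51118077 at E14.5 and from 35269886 to 101482176 at E12.5. E12.5 chips 195 and 196, which carry the numbers next to the E14.5 chips, had medians of 1661.5 and 2056.5 genes, so low gene counts occurred at both ages. Reads of Xist and of a Y-linked gene in the same cell, which can mark a doublet or free RNA, were found in 39 of 247 cells at E14.5 and in 245 of 926 at E12.5. At least 10 reads of each were found in 7 cells at E14.5 and in 82 at E12.5. Doublets of cells of the same sex escape this measure, and no doublet caller was run.

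Leiden clustering gave 7 clusters. By markers, 4 were progenitor-like (531 cells in all) and 2 neuron-like (424 cells), while cluster 6, with 218 cells, stayed unnamed: its median was 1766 genes per cell and its leading genes were Gm10800, Cox7c and Malat1. The mean neuron marker score was 0.408 in neuron-like cluster 1 but 0.199 in neuron-like cluster 2, where 0.15 was needed for a name. Cluster 2 had a median of 2203.5 genes. Progenitor-like cluster 4 had a neuron score of 0.237, beside a progenitor score of 0.419. The unnamed cluster held 94.6% and 73.5% of the cells of E14.5 chips 191 and 192, against 3.66% and 15.2% on chips 193 and 194. At E12.5 it held 85.7% of chip 180 and 60.3% of chip 181, and 0% to 23.1% of the other 11 chips. Of these chips, 191, 192 and 180 also stood apart in level: the 20 progenitor marker genes summed to 19920 and 9253 CPM (counts scaled to the total of the library after TMM normalization) on chips 191 and 192 and to 24850 on chip 180, and the 16 neuron marker genes to 18030, 9856 and 6886 CPM. Chip 181, with 5459 and 3633 CPM, lay within the range of the other E12.5 chips. The TMM factors that set this scale were 0.337 and 0.548 on chips 191 and 192, 0.5002 on chip 180, and 0.781 to 1.26 on chips 181, 193 and 194. The comparisons by class rest on chips 193 (dMGE) and 194 (vMGE) at E14.5, since a chip needed 10 cells of a class. Neuron-like cells had a median of 2356.5 genes at E14.5 and 3722.5 at E12.5, and progenitor-like cells 2653 at E14.5 and 4102.5 at E12.5.

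**Figure D1:**
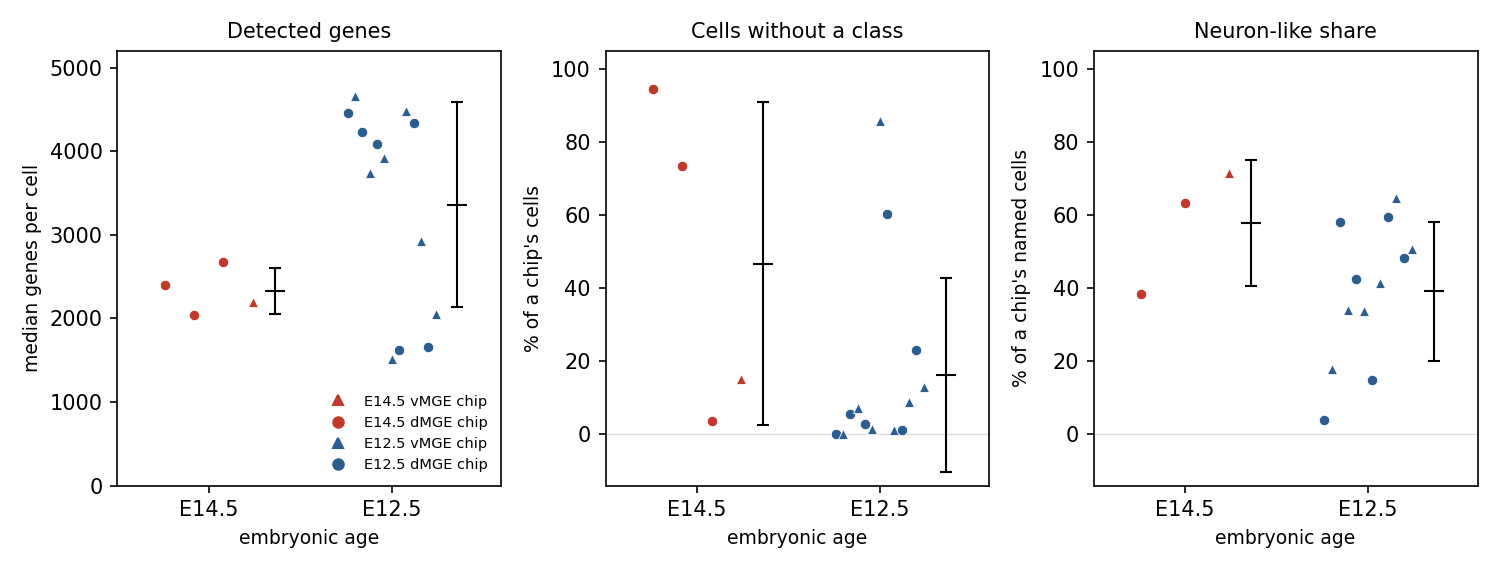
Median detected genes per cell (left), share of a chip's cells in the unnamed cluster in percent (middle) and neuron-like share of its named cells in percent (right), 1 point per chip, with E14.5 left of E12.5. Triangles are vMGE and circles dMGE chips, and black bars give mean ± SD over chips. E14.5 chips 191 and 192 and E12.5 chips 180 and 181 stand above 60% unnamed cells, and the neuron-like shares of the ages overlap.

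The labelled tissue was checked by its defining genes. Nkx2-1 was read in 161 of 247 cells at E14.5 and in 837 of 926 at E12.5, and Lhx6 in 184 of 247 at E14.5 and 770 of 926 at E12.5. Scaled with late chips of the caudal ganglionic eminence (CGE), E14.5 dMGE chip 193 had 86.8 CPM of Nkx2-1, the lowest of its group. CGE chips at E14.5 reached 79.2 CPM, with a mean of 31.2. Lhx6 averaged 285.4 CPM in CGE at E14.5, so its reads alone do not set the MGE apart. Markers of pallial excitatory neurons summed to 0.0206 to 8.22 CPM per chip at E14.5 and 0.0185 to 18.1 at E12.5. Microglial markers stood higher at E14.5, where the summed level of 9 genes was 0.266 to 304.5 CPM at E14.5 (median 230.7) and 0 to 22.4 CPM at E12.5 (median 1.79). Erythroid markers summed to 12.1 to 3104 CPM at E14.5 and 0.420 to 1702 at E12.5, and 12 dissociation and immediate early genes to 475.5 to 7970 CPM at E14.5 and 271 to 1265 at E12.5. Their part in the all-cell results was not tested. In progenitor-like cells the microglial sum was 0 to 1.28 CPM at E14.5, with 8 of 9 markers at 0, and 0 to 14.7 CPM at E12.5.

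The first question was whether the share of neuron-like cells differed with age. Among named cells, 38.5%, 63.3% and 71.6% were neuron-like on E14.5 chips 192, 193 and 194. On the 12 E12.5 chips with 10 named cells the share ran from 3.90% to 64.8%, with a median of 42.1%. Only chip 194 lay above every E12.5 chip. The mean was 57.8% ± 17.3 (SD, n = 3) at E14.5 and 39.2% ± 19.1 (SD, n = 12) at E12.5, a difference of 18.6 percentage points that did not pass the two-sided exact permutation test (p = 0.147, smallest possible p 0.00220). Clusters built without the genes at an unadjusted p under 0.05 in the all-cell comparison gave 42.3% at E14.5 and 22.1% at E12.5 (exact p = 0.132). Within dMGE chips alone the shares were 50.9% at E14.5 and 37.9% at E12.5 (exact p = 0.571), and vMGE has 1 chip at E14.5. The neuron-like cells of E14.5 came from clusters 1 and 2 (56 and 48 cells), as did those of E12.5 (194 and 126 cells).

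No gene passed the test for a change with age when all cells of a chip were summed. edgeR's quasi-likelihood test with region as a term called 0 of 15090 genes at an adjusted p under 0.05 (0.0%). The smallest adjusted p was 0.422, 1601 genes (10.6%) had an unadjusted p under 0.05, DESeq2 called 1891 genes (12.7%), 1507 higher (10.1%) and 384 lower (2.57%), and limma on log2(mean CPM + 1) called 0. The median log2 fold change over all genes was -0.34, and it was 0.10 with DESeq2's size factors and -0.59 with no scaling beyond library size, so small fold changes in all cells have no fixed sign. Of 17 genes followed in every comparison, 9 were lower at E14.5, next to 58.0% of all genes with a fold change below 0, and 9 kept their sign over 4 ways of scaling.

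Among the 17 genes, 2 were lower at E14.5 at an unadjusted p under 0.05 (background 4.41%), Hmga2 and Ccnd1, and 3 were higher (background 6.2%), Lhx6, Npy and Nfib. Hmga2, a chromatin protein of early progenitors, was at 0, 0, 1.37 and 0.0206 CPM on E14.5 chips 191 to 194, and between 0.0839 and 20.6 CPM with a median of 9.52 at E12.5. All E14.5 chips lay below 12 of the 13 E12.5 chips. Reads of Hmga2 were found in 6 of 247 cells at E14.5 and in 138 of 926 at E12.5. The log2 fold change was -5.35 ± 1.89 (SE; unadjusted p = 0.00920, edgeR adjusted p = 0.446), lower under each of the 4 scalings, and -4.45 (unadjusted p = 0.0101) without chips 180, 181, 191 and 192. Ccnd1, the cyclin that drives entry into the cell cycle, was at 0.344, 6.94, 46.8 and 22.0 CPM at E14.5, and at 23.5 to 148 CPM with a median of 82.8 at E12.5. Again 12 of 13 E12.5 chips lay above every E14.5 chip (log2 fold change -2.19 ± 0.95 SE, unadjusted p = 0.0299; -1.55, p = 0.00299, without the same 4 chips). Lin28b, a blocker of let-7 maturation, was at 7.13, 1.68, 1.97 and 0.123 CPM at E14.5 and at 1.59 to 33.9 CPM with a median of 12.7 at E12.5, and the ages overlapped (p = 0.102). Igf2bp1, an RNA-binding partner of the same programme, overlapped fully: 110.3, 19.8, 18.7 and 22.7 CPM at E14.5, and 14.4 to 75.4 CPM at E12.5 (log2 fold change -0.06 ± 0.81, p = 0.938). Olig2, a factor of MGE progenitors and of the oligodendrocyte lineage, was at 0.773, 43.9, 11.3 and 6.88 CPM at E14.5, and at 12.4 to 195 CPM with a median of 48.6 at E12.5 (p = 0.110). Without the 4 chips its log2 fold change was -2.50 (p = 0.00585).

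Higher values at E14.5 in the all-cell sums sat mostly on chips 191 and 192. Npy, a neuropeptide of MGE-derived interneurons, was at 3973 CPM on chip 191, 661.6 on 192, 290.2 on 193 and 328.9 on 194, against 78.7 to 986.3 CPM with a median of 302.9 at E12.5. Chips 193 and 194 lay inside the E12.5 range, and 1 cell held 32.4% of all Npy reads of E14.5. Its log2 fold change was 1.80 ± 0.74 (unadjusted p = 0.0224), and 0.20 (p = 0.708) without chips 180, 181, 191 and 192. Lhx6 was at 340.7, 2981, 429.7 and 379.3 CPM at E14.5, against 29.0 to 605.4 CPM with a median of 355.2 at E12.5. The log2 fold change of Lhx6 was 1.496 ± 0.64 (p = 0.0290), and 0.13 (p = 0.686) without the 4 chips. Nfib, a factor of later progenitors and of glia, was at 830.8, 1502, 96.0 and 333.6 CPM at E14.5, and at 79.2 to 1055 CPM at E12.5 (1.62 ± 0.69, p = 0.0272). Leaving out the 4 chips gave Nfib a log2 fold change of -0.19 (p = 0.666). Nkx2-1 was at 393.8, 2001, 80.5 and 123.3 CPM at E14.5, and at 131.2 to 1833 CPM with a median of 258.7 at E12.5. Its sign changed with scaling (1.28 in the edgeR fit, -0.47 in limma on cell means), and without the 4 chips it was -1.24 (p = 0.0119).

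**Figure D2:**
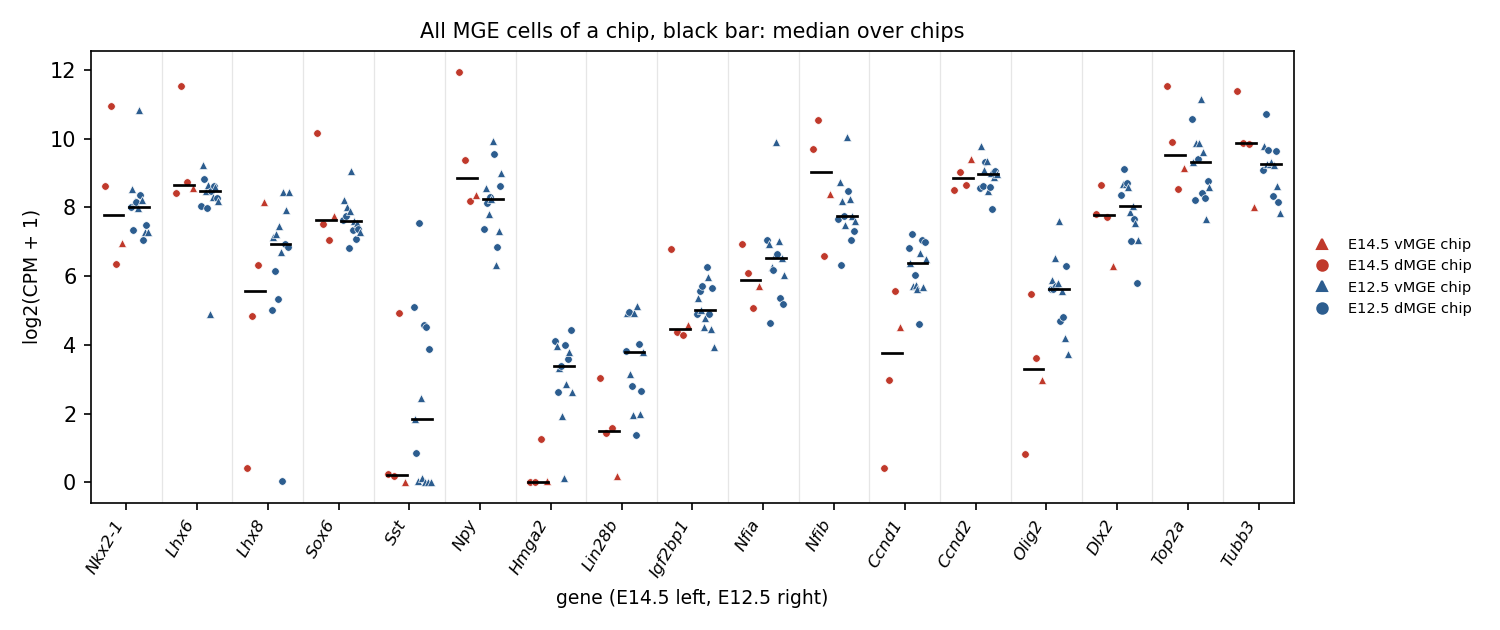
log2(CPM + 1) of 17 genes in all MGE cells of a chip, 1 point per chip, with E14.5 left of E12.5 for each gene; triangles are vMGE chips, circles dMGE chips and black bars medians over chips. Hmga2 and Ccnd1 sit low at E14.5, and for Npy, Lhx6, Nkx2-1 and Nfib 1 or 2 E14.5 chips stand above the rest.

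In 14 of 15090 genes (0.0928%) no E14.5 chip overlapped an E12.5 chip in the all-cell sums, 9 higher (0.0596%) and 5 lower (0.0331%) at E14.5. If the chips were exchangeable, a gene would separate in a given direction in 1 of 2380 relabellings (a share of 0.000420). The shares seen are close to that, so a lack of overlap is no evidence of a change with age by itself. The following examples were chosen after their values were seen. Nqo2, a quinone reductase, was at 0.430, 0.0358, 1.11 and 0.411 CPM at E14.5, and at 4.51 to 174 CPM with a median of 12.3 at E12.5 (log2 fold change -6.01 ± 1.53, unadjusted p = 0.000602, edgeR adjusted p = 0.422). Reads of Nqo2 came from 10 of 247 cells at E14.5 and 93 of 926 at E12.5. Paics, an enzyme of purine synthesis read in most cells, was at 93.7, 161.2, 243.1 and 245.0 CPM at E14.5, and at 251.2 to 1264 CPM at E12.5 (-1.04 ± 0.55, p = 0.0701). Sall3, a zinc finger factor, was at 18.04, 0.250, 19.7 and 9.23 CPM at E14.5, and at 29.5 to 89.6 CPM at E12.5 (-1.98 ± 0.97, p = 0.0538). Cdk7, the kinase of the CDK-activating complex and of TFIIH, was higher: 879.1, 608.6, 205.1 and 205.7 CPM at E14.5, and 7.89 to 204.9 CPM at E12.5 (2.03 ± 0.66, p = 0.00511). On chips 193 and 194 Cdk7 exceeded the highest E12.5 chip by under 1 CPM.

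Progenitor-like cells gave no called gene either. edgeR called 0 of 14495 genes (0.0%), with a smallest adjusted p of 0.822. At an unadjusted p under 0.05 stood 504 genes (3.48%), 150 higher (1.03%) and 354 lower (2.44%). Without any change a share of 0.05 would be expected there, so these genes are no excess. DESeq2 called 697 (4.98%), 24 higher (0.172%) and 673 lower (4.81%), and limma called 5. The sums held 48 cells on 2 chips at E14.5 and 468 cells on 12 chips at E12.5, and the median log2 fold change over all genes was -0.40, which is the level to read single genes against. Of the 17 genes, 16 were lower at E14.5, 1 of them at an unadjusted p under 0.05, next to 63.9% of all genes with a fold change below 0.

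Hmga2 was at 4.27 CPM on chip 193 and 0 on chip 194, against 5.14 to 55.1 CPM with a median of 19.5 at E12.5. The ages did not overlap, as for 240 genes in these cells (1.66%), 128 of them higher (0.883%) and 112 lower (0.773%) at E14.5. With so few E14.5 chips, some genes separate in this way by chance. If 2 and 12 chips were exchangeable, 1 of 91 relabellings (a share of 0.011) would separate a gene in a given direction. The shares seen do not exceed that, so a lack of overlap is no evidence of a change with age by itself. The log2 fold change was -4.01 ± 1.76 (unadjusted p = 0.0355, edgeR adjusted p = 0.896; DESeq2 adjusted p = 5.86e-04). After each cell was thinned to 50000 counts, which all cells reached, Hmga2 was read in 10.3% and 0% of progenitor-like cells on chips 193 and 194, and in 4.35% to 25.0% (median 12.8%) on E12.5 chips. The unthinned means were 6.90% at E14.5 and 20.2% at E12.5. On the thinned scale chip 193 lay inside the E12.5 range. Lin28b was at 6.23 and 0 CPM at E14.5, from 1 of 48 cells, against 0.0628 to 71.6 CPM with a median of 15.8 at E12.5 (-3.02 ± 2.22, p = 0.192). Igf2bp1 was at 23.0 and 16.0 CPM at E14.5, and at 13.1 to 121.6 CPM with a median of 47.2 at E12.5, with 11 of 12 E12.5 chips above both (-1.49 ± 0.96, p = 0.141). Ccnd1 was at 63.2 and 67.0 CPM at E14.5, against 28.1 to 347 CPM with a median of 139.6 at E12.5 (-1.30 ± 0.77, p = 0.111). Ccnd2, the cyclin of intermediate progenitors, was at 609.5 and 884.8 CPM at E14.5, and at 418.5 to 1073 CPM with a median of 802.8 at E12.5, a log2 fold change of -0.06 ± 0.36. Nfia was at 44.7 and 57.6 CPM at E14.5 and 40.0 to 172.1 CPM (median 97.8) at E12.5, and Nfib at 113.3 and 289 CPM at E14.5 and 133.5 to 569.4 CPM (median 244) at E12.5. Neither of these later-stage factors was higher at E14.5 (-1.04 ± 0.66, p = 0.130, and -0.57 ± 0.60, p = 0.349).

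Regional factors in progenitor-like cells overlapped between ages. Nkx2-1 was at 119.8 and 172.9 CPM at E14.5, and at 102.5 to 461.3 CPM with a median of 309 at E12.5 (-1.03 ± 0.59, p = 0.1002). The 2 E12.5 chips with neighbouring numbers, 195 and 196, had 150.1 and 102.5 CPM, the first between the E14.5 chips and the second below both. Lhx8 was the 1 gene of the 17 with a fold change above 0: 123.3 and 236.1 CPM at E14.5, and 0 to 326 CPM with a median of 86.3 at E12.5 (1.40 ± 0.997, p = 0.178). Olig2 was at 19.1 and 25.7 CPM at E14.5, and at 11.4 to 150.6 CPM with a median of 70.1 at E12.5, where 11 of 12 chips lay higher (-1.72 ± 0.89, p = 0.0694). Dlx2 was at 291.7 and 43.5 CPM at E14.5 and 59.2 to 636.8 CPM at E12.5 (p = 0.239), and Top2a, a topoisomerase of dividing cells, at 812 and 689.4 CPM at E14.5 and 386.4 to 1947 CPM at E12.5 (p = 0.619). Otx2, a homeobox factor, was chosen after its values were seen. It had no read in any of 48 progenitor-like cells at E14.5, which by counting error alone allows up to 6.25% of cells with a read. That limit takes the 48 cells of 2 chips as independent and says nothing of missed detection, and these cells had fewer detected genes than those of E12.5. At E12.5 it was read in 104 of 468 cells, at 0 to 97.0 CPM with a median of 27.8, and 11 of 12 chips held reads (unadjusted p = 0.00184, edgeR adjusted p = 0.896).

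**Figure D3:**
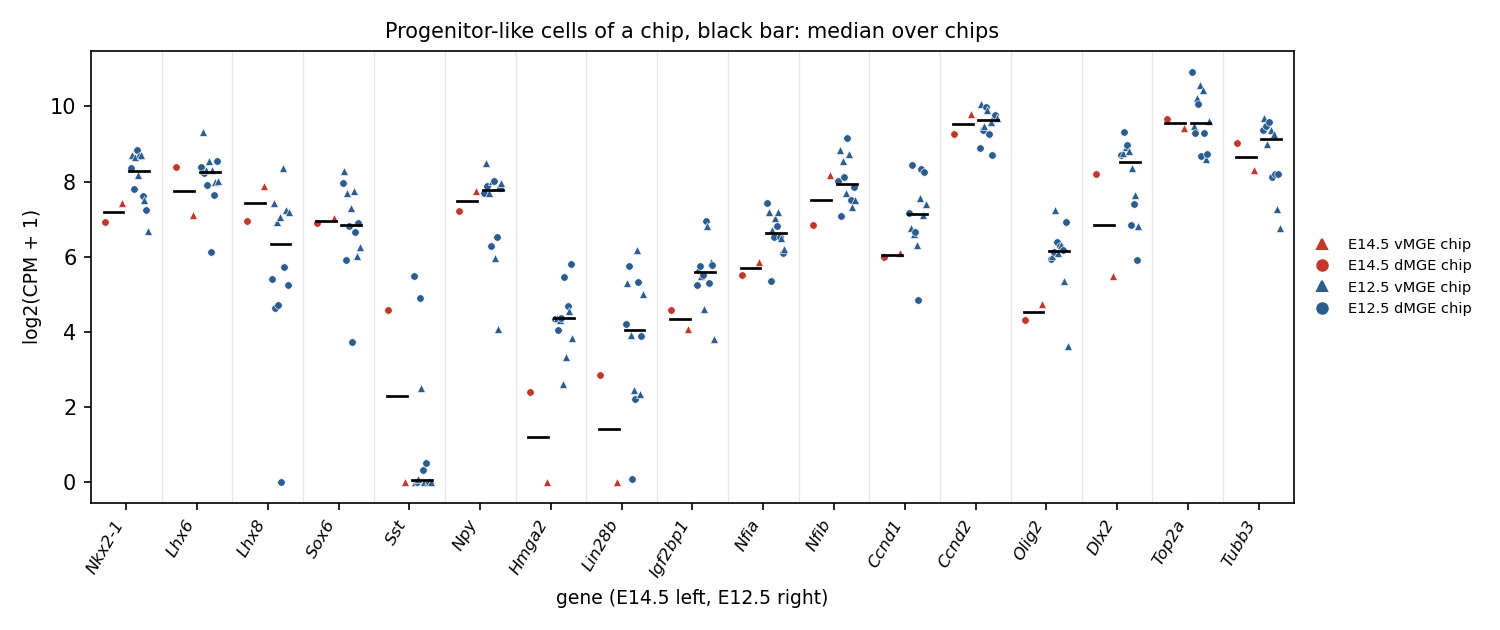
log2(CPM + 1) of the same 17 genes in progenitor-like cells of a chip, 2 chips at E14.5 (left for each gene) and 12 at E12.5; triangles are vMGE chips, circles dMGE chips and black bars medians. Hmga2 is the gene whose E14.5 chips, at 4.27 and 0 CPM, both lie below every E12.5 chip.

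Gene lists in progenitor-like cells are given by their counts and medians, beside the median of -0.40 over all genes. Sox2, Fabp7, Hes1, Hes5 and Dll1 were among the markers that named this class, so their levels partly reflect the choice of cells. Of 15 radial glia genes, all tested, 0 had a fold change above 0, the median was -1.11, and Sox2, Sox9 and Fabp7 were lower at an unadjusted p under 0.05; over all genes 63.9% had a fold change below 0 and 2.44% were lower at that p. Sox9, which keeps progenitors undifferentiated and prepares gliogenesis, was at 63.9 and 61.8 CPM at E14.5 and at 92.5 to 275.3 CPM with a median of 177.8 at E12.5, without overlap (-1.49 ± 0.58, p = 0.0206; DESeq2 adjusted p = 0.0450). In thinned progenitor-like cells Sox9 was read in 55.2% and 42.1% at E14.5 and in 39.1% to 93.5% on E12.5 chips, so there the ages overlapped (unthinned means 72.1% at E14.5 and 87.6% at E12.5). Sox2, the pan-progenitor factor, was at 132.8 and 56.7 CPM at E14.5 and 102.3 to 593.9 CPM (median 214.8) at E12.5, and Fabp7, a lipid carrier of radial glia, at 75.6 and 416.1 CPM at E14.5 and 207.6 to 1611 CPM (median 556) at E12.5. Both overlapped between ages. With median genes per cell as a covariate the radial glia median stood 0.29 below that of all genes, against 0.71 below in the fit without it. Of 16 Notch pathway genes 1 was above 0 and 15 below, with a median of -1.41 and 2 below at an unadjusted p under 0.05, the ligand Jag1 and the target Hey1 (2.44% of all genes). The Notch median stood 1.01 below that of all genes, and 0.33 below with the covariate. On E14.5 chips 193 and 194 Hes5 was at 29.2 and 3.74 CPM, Notch1 at 34.6 and 4.01, and Dll1 at 43.8 and 59.1. Neighbouring E12.5 chips 195 and 196 overlapped them, with 0.28 and 5.76 CPM of Hes5, 1.91 and 42.75 of Notch1, and 30.2 and 66.5 of Dll1. Sox9, at 92.5 and 115 CPM there, stayed above both E14.5 chips. Of 11 tested Hedgehog genes 8 were below 0 (median -1.54), and of 12 early temporal genes 10 were below 0 (median -1.11). Of 14 late and gliogenic genes 13 were below 0 too (median -1.27), so both temporal lists lay below 0. Relative to all genes the Hedgehog median turned from -1.14 to 0.28 with the covariate, and was -0.05 in limma and -1.45 in thinned cells. The early temporal one moved from -0.71 to -0.43 with the covariate and to -0.95 in thinned cells. The late one moved from -0.87 to -0.55 in thinned cells and stayed at -0.87 with the covariate. The 20 S phase genes split into 10 above and 10 below 0 (median -0.003), and the 25 G2 and M phase genes into 6 and 19 (median -0.25). With the covariate the S phase median moved from 0.40 to 0.22 relative to all genes, and that of G2 and M phase turned from 0.15 to -0.18. These values rest on 48 cells at E14.5, and no list was tested as a set.

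Further genes of progenitor-like cells were chosen after their values were seen, among them several read in 1 of 48 cells at E14.5. Psph, the last enzyme of serine synthesis, was at 0.350 and 0 CPM at E14.5 and at 1.33 to 72.9 CPM (median 36.4) at E12.5, read in 1 of 48 cells at E14.5 and 126 of 468 at E12.5 (unadjusted p = 0.00188; DESeq2 adjusted p = 2.24e-07). Psat1, the enzyme before it in the same pathway, was at 90.5 and 79.4 CPM at E14.5 and at 135.8 to 608.2 CPM (median 298.2) at E12.5, without overlap (-1.77 ± 0.63, p = 0.0119). Yap1, the effector of Hippo signalling, was at 0 and 0.0912 CPM at E14.5 and at 1.09 to 92.1 CPM (median 12.3) at E12.5, read in 1 of 48 cells at E14.5 and 89 of 468 at E12.5 (p = 0.00324). Igfbp5 was at 0.210 and 0 CPM at E14.5 and at 0.9998 to 81.2 CPM (median 14.8) at E12.5 (p = 0.00394). Among the genes limma called, Slc15a2 was at 10.3 and 93.4 CPM and Ttpa at 30.7 and 60.2 CPM at E14.5, against at most 2.71 and 0.423 CPM at E12.5. Each was read in 2 of 48 cells at E14.5, 1 per chip.

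In neuron-like cells the MGE factor Nkx2-1 stood below its E12.5 range while Lhx6 stood within it, and no gene passed the test. edgeR called 0 of 13350 genes (0.0%), with a smallest adjusted p of 0.207. At an unadjusted p under 0.05 stood 333 genes (2.49%), 167 higher (1.25%) and 166 lower (1.24%). Here too the share was below the 0.05 expected without any change. DESeq2 called 528 (3.96%), 66 higher (0.495%) and 462 lower (3.46%), and limma called 4. The sums held 98 cells on 2 chips at E14.5 and 312 cells on 10 chips at E12.5, and the median log2 fold change over all genes was -0.20. Of the 17 genes, 15 were lower at E14.5, 1 of them at an unadjusted p under 0.05, and 15 kept their sign over 4 scalings; 58.2% of all genes had a fold change below 0.

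Nkx2-1 was at 70.2 and 123 CPM on E14.5 chips 193 and 194, and at 135 to 438.6 CPM with a median of 216.6 at E12.5. The ages did not overlap, as for 283 genes in these cells (2.12%), 176 of them higher (1.32%) and 107 lower (0.801%) at E14.5. Separation of so few E14.5 chips also arises by chance in some genes, so a lack of overlap is weak evidence by itself. The log2 fold change was -1.23 ± 0.48 (unadjusted p = 0.0226, edgeR adjusted p = 0.9996, DESeq2 adjusted p = 0.136). In cells thinned to 50000 counts Nkx2-1 was read in 44.0% and 52.1% at E14.5 and in 58.1% to 100% (median 78.0%) on E12.5 chips, again without overlap, and the unthinned means were 59.3% at E14.5 and 91.1% at E12.5. The neighbouring E12.5 chips 195 and 196 had 245.9 and 142.9 CPM. Lhx6, which acts after Nkx2-1, overlapped between ages: 625.1 and 572.4 CPM at E14.5, and 277.8 to 987.1 CPM with a median of 612.2 at E12.5 (0.07 ± 0.41, p = 0.865). Sox6 was at 192.8 and 300.5 CPM at E14.5 and at 173.9 to 559.6 CPM (median 326.9) at E12.5 (p = 0.270). Lhx8 was at 80.8 CPM on dMGE chip 193 and 382.3 on vMGE chip 194, and at 80.5 to 675.3 CPM (median 254.7) at E12.5 (p = 0.448). Npy was at 493.2 and 454.4 CPM at E14.5, next to a median of 504.8 CPM at E12.5. Sst, the peptide of a main class of MGE interneurons, was at 42.5 and 0 CPM at E14.5 and at 0 to 518.8 CPM (median 4.11) at E12.5, read in 7 of 98 cells at E14.5 and 35 of 312 at E12.5.

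Genes known from progenitors varied in neuron-like cells, and none passed the test. Lin28b was at 0 and 0.209 CPM at E14.5, and at 0.697 to 27.1 CPM with a median of 3.98 at E12.5, without overlap (-5.23 ± 2.73, p = 0.0761; DESeq2 adjusted p = 0.00152). It was read in 2 of 98 cells at E14.5 and 34 of 312 at E12.5. In thinned cells Lin28b was read in 0% and 4.17% at E14.5 and in 0% to 11.5% on E12.5 chips, so at equal counts the ages overlapped (unthinned means 2.08% at E14.5 and 11.03% at E12.5). Olig2 was at 10.8 and 1.70 CPM at E14.5 and at 10.2 to 95.3 CPM (median 24.0) at E12.5 (-2.93 ± 1.39, p = 0.0545). Dlx2 was at 228.4 and 97.6 CPM at E14.5 and at 56.5 to 704.7 CPM (median 406.6) at E12.5 (p = 0.0915). Ccnd1 was at 38.0 and 11.7 CPM at E14.5 and at 8.36 to 65.2 CPM (median 39.6) at E12.5 (p = 0.441), and Ccnd2 at 269.3 and 736 CPM at E14.5 and 214.3 to 605.7 CPM (median 403.2) at E12.5 (p = 0.394). Tubb3, the neuronal tubulin, was at 1465 and 290.3 CPM at E14.5, near both ends of the E12.5 range of 283.8 to 2699 CPM (p = 0.322).

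**Figure D4:**
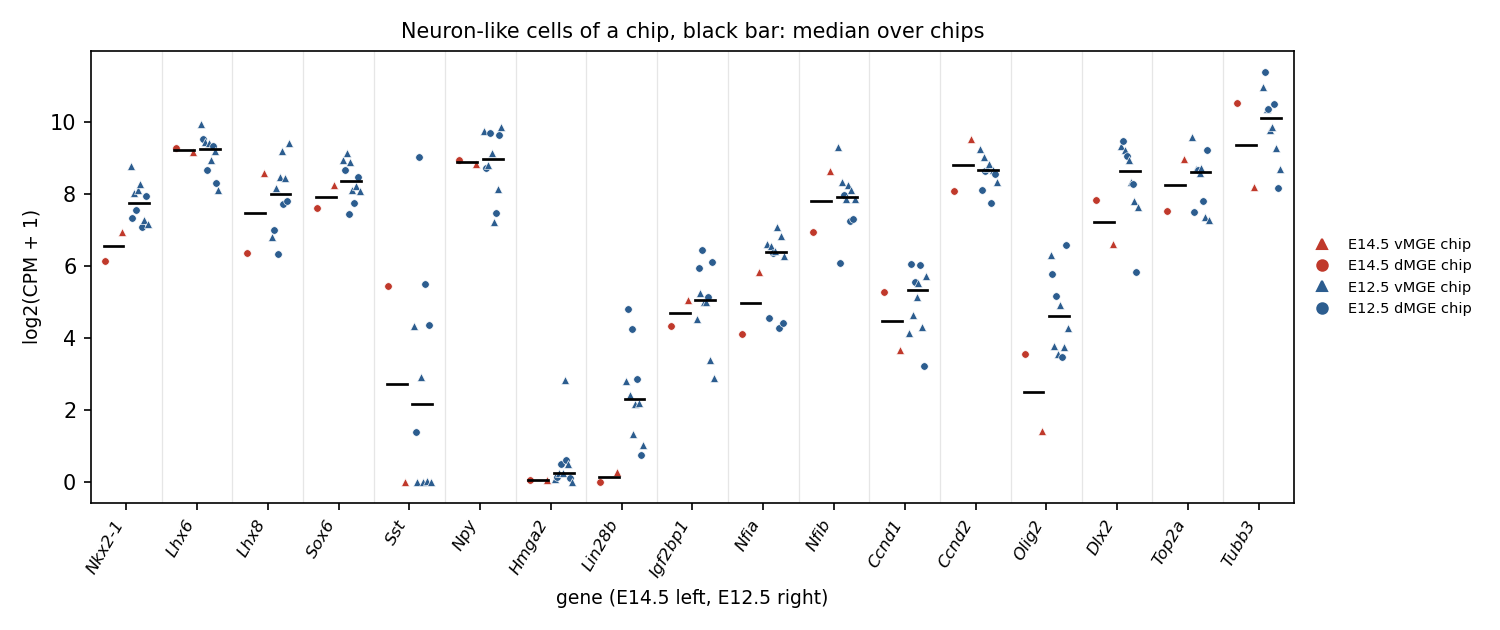
log2(CPM + 1) of the same 17 genes in neuron-like cells of a chip, 2 chips at E14.5 (left for each gene) and 10 at E12.5; triangles are vMGE chips, circles dMGE chips and black bars medians. Nkx2-1 and Lin28b lie below every E12.5 chip on both E14.5 chips, while Lhx6 sits at the E12.5 median.

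Further regulators in neuron-like cells were chosen after their values were seen. Nucks1, a chromatin-associated phosphoprotein, was at 80.7 and 38.5 CPM at E14.5, and at 134.5 to 266.2 CPM with a median of 176.9 at E12.5 (-1.75 ± 0.45, unadjusted p = 0.00162; DESeq2 adjusted p = 3.15e-06). Crabp2, a carrier of retinoic acid, was at 67.9 and 148.5 CPM at E14.5, and at 169.3 to 655.3 CPM with a median of 263.1 at E12.5 (-1.51 ± 0.42, p = 0.00321). Nr2f2, an orphan receptor of the caudal eminence and of the dorsal MGE, was at 18.9 and 7.86 CPM at E14.5, and at 22.1 to 143 CPM with a median of 71.0 at E12.5 (-2.57 ± 0.91, p = 0.0137). None of these 3 genes overlapped between ages in CPM. In thinned cells Crabp2 was read in 20% and 35.4% at E14.5 and in 10.3% to 90.6% at E12.5, with both E14.5 chips inside the range (unthinned means 27.7% at E14.5 and 62.8% at E12.5). Nucks1 was read in 42% and 39.6% of thinned cells at E14.5 and in 45.2% to 93.8% at E12.5, without overlap (unthinned means 62.2% at E14.5 and 85.2% at E12.5). In thinned cells Nr2f2 was read in 20% and 4.17% at E14.5 and in 17.2% to 44.7% at E12.5, and there chip 193 lay within the E12.5 range (unthinned means 15.2% at E14.5 and 50.1% at E12.5). Its relative Nr2f1 was at 166.8 and 51.9 CPM at E14.5 and at 113.7 to 452.5 CPM at E12.5, with overlap (-1.39 ± 0.48, p = 0.0117). Sox9 was at 35.7 and 35.2 CPM at E14.5 and at 51.2 to 201.5 CPM (median 96.2) at E12.5, without overlap as in progenitor-like cells (-1.53 ± 0.62, p = 0.0272). Sox9 was read in 30% and 20.8% of thinned cells at E14.5 and in 34.5% to 78.3% at E12.5 (unthinned means 38.9% at E14.5 and 70.4% at E12.5). Plxna2, a semaphorin receptor, was at 177.7 and 167.3 CPM at E14.5 and at 228.9 to 497.1 CPM at E12.5 (-1.06 ± 0.36, p = 0.00986). Insm1, a zinc finger factor of neurogenic divisions, was at 25.6 and 57.5 CPM at E14.5 and at 61.8 to 237.2 CPM at E12.5 (-1.52 ± 0.67, p = 0.0391). Nucks1, Nr2f2, Insm1 and Sox9 did not have this pattern in all cells, where chips 191 and 192 carried 5205 and 680.2 CPM of Nucks1, 2237 and 279 of Nr2f2, 1387 and 535.5 of Insm1 and 247.4 and 164.4 of Sox9.

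Some of the genes with values above E12.5 in neuron-like cells are given here, Pcna and others chosen after their values were seen. Pcna, the sliding clamp of DNA replication, was at 190.9 and 387 CPM at E14.5 and at 48.8 to 181.7 CPM (median 99.2) at E12.5, without overlap (1.47 ± 0.47, p = 0.00779; DESeq2 adjusted p = 0.130). E12.5 chip 195 had the 181.7 CPM, next to 190.9 on E14.5 chip 193. Of 20 S phase genes 14 were above 0 with a median of 0.99, next to -0.20 for all genes, and Pcna was the 1 with an unadjusted p under 0.05. The neuron-like sums also held Top2a, at 184.3 and 505.2 CPM on chips 193 and 194 and 153 to 764.8 CPM at E12.5. On chip 194 Tubb3 was at 290.3 CPM in neuron-like and 315.8 CPM in progenitor-like cells. Whether dividing cells within this class carried the S phase values was not tested. Arhgdib, a gene known from blood cells, was at 21.5 and 35.1 CPM at E14.5 and at most 0.0389 at E12.5 (unadjusted p = 2.19e-05, edgeR adjusted p = 0.207). It was read in 2 of 98 cells, and the microglial markers summed to 0.539 and 515 CPM on chips 193 and 194, against 0 to 73.1 CPM at E12.5. Zfp984, a zinc finger gene, was at 86.3 and 37.8 CPM at E14.5 in 7 of 98 cells and at most 0.220 CPM at E12.5 in 8 of 312 cells (unadjusted p = 3.10e-05, edgeR adjusted p = 0.207). Both genes were read at E12.5 in progenitor-like cells: Arhgdib at 28.75 CPM on chip 177, and Zfp984 at 33.1 on chip 170 and 10.9 on chip 171. Chip 170 had 3 neuron-like cells and was not in the neuron-like sums.

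Neuronal identity genes lay near the median of all genes in neuron-like cells, a class named by markers such as Tubb3, Dcx, Stmn2 and Gap43. Levels of such markers are partly set by the choice of cells, so their closeness between ages is no sign of a stable identity. The 27 pan-neuronal genes had a median of -0.15 with 7 above and 20 below 0, and the 10 GABAergic genes one of -0.37, next to -0.20 for all genes. Dlx5, a GABAergic homeobox factor, had higher values on both E14.5 chips (643 and 523.8 CPM) than on every E12.5 chip (375.7 to 515.1 CPM; 0.44 ± 0.25, p = 0.105), and Dlx1 lower (315.9 and 377.7 CPM at E14.5, 404.8 to 899.8 CPM at E12.5; p = 0.0579). Gad1, which makes GABA, was at 635.4 and 690.6 CPM at E14.5 and at 575 to 1120 CPM at E12.5. Of all genes in these cells 58.2% had a fold change below 0, and 1.24% were lower at an unadjusted p under 0.05 in edgeR. Of 10 intermediate progenitor genes 0 were above 0 (median -1.45), and 1 was lower at that p. Their median stood 1.26 below that of all genes, and 0.87 below with median genes per cell as a covariate. Of 17 migration and guidance genes 14 were below 0 (median -1.31), 0 of them at an unadjusted p under 0.05. The migration median stood 1.11 below that of all genes, and 0.39 below with the genes-per-cell covariate, 0.34 in limma and 0.63 in thinned cells. The 15 MGE lineage genes had a median of -0.48 and the 22 synapse and ion channel genes one of -0.43. Relative to all genes the MGE lineage median moved from -0.28 to -0.65 with the covariate and the synapse median from -0.23 to -0.05 in limma, while the pan-neuronal one turned from 0.04 to -0.19 with the covariate and to -0.14 in limma and in thinned cells. In all cells the pan-neuronal median was 0.93, with 19 of 27 genes above 0 and 9 at an unadjusted p under 0.05 (background 6.2%). Without chips 180, 181, 191 and 192 that list stood 0.31 above the median of all genes, against 1.27 above it with them. The scaling moved it too: its median was 2.70 with DESeq2's size factors, 0.001 with library size alone and -0.04 in limma, or 2.61, 0.59 and 0.53 above that of all genes.

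**Figure D5:**
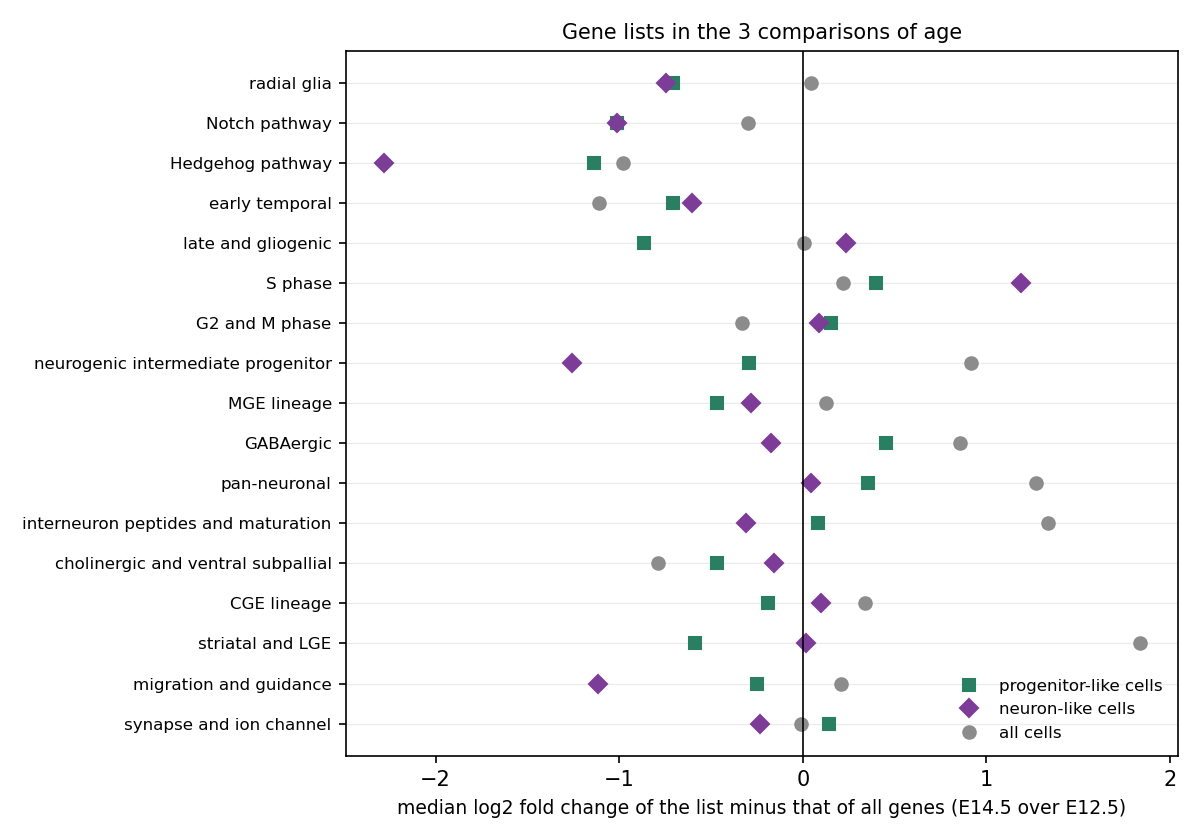
Median log2 fold change (E14.5 over E12.5) of each gene list minus the median of all genes, in progenitor-like cells (squares), neuron-like cells (diamonds) and all cells (circles). Radial glia and Notch lists lie below 0 in both classes, the S phase list at 1.19 in neuron-like cells, and the pan-neuronal list at 1.27 in all cells and near 0 in neuron-like cells.

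Of 12811 genes tested in both classes, 347 were lower in progenitor-like cells and 164 in the neuron-like class at an unadjusted p under 0.05, and 10 were in both sets, 2.88% of the first and 6.10% of the second. Higher were 80 in progenitor-like cells and 141 in the neuron-like class, with 3 in both (3.75% and 2.13%). Sox9 was among the 10 lower genes, with the guidance cue Ntn1, the cystine carrier Slc7a11 and the Y-linked Kdm5d. Kdm5d was at 0 and 0.182 CPM in progenitor-like cells at E14.5 and 0.0157 to 95.0 CPM at E12.5, and at 1.39 and 0.0348 CPM in neuron-like cells at E14.5 and 13.4 to 120 CPM at E12.5. The sexes of the embryos are not in the labels, and sex and age cannot be told apart on these chips. Both classes come from the same chips, so the overlap is a description.

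The ventral and dorsal parts could be compared for their change with age only through 1 E14.5 vMGE chip, which was assumed to vary like the others. edgeR called 0 of 18678 genes (0.0%) for a difference of the age change between vMGE and dMGE, with 518 at an unadjusted p under 0.05 (2.77%; 1.73% higher and 1.04% lower) and a smallest adjusted p of 0.980. DESeq2 called 940 (6.93%), with 35 higher (0.258%) and 905 lower (6.67%). Hmga2 was at 0.0208 CPM on the vMGE chip at E14.5 and averaged 7.52 CPM in vMGE at E12.5, and it averaged 0.494 CPM in dMGE at E14.5 and 13.6 CPM at E12.5 (levels scaled with the CGE chips). Ccnd1 was at 22.3 CPM in vMGE at E14.5 and 71.6 CPM at E12.5, and at 19.5 CPM in dMGE at E14.5 and 106.9 CPM at E12.5. Both genes had lower values at E14.5 in each part, with differences of the change of -3.56 (p = 0.327) and 0.86 (p = 0.647). Lhx8, a ventral gene, was at 289.4 CPM in vMGE at E14.5 and 224.3 CPM at E12.5, against 38.4 CPM in dMGE at E14.5 and 66.1 CPM at E12.5.

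The caudal ganglionic eminence (CGE) on late chips, with 387 cells on 5 chips at E14.5 and 467 cells on 6 chips at E12.5, was set beside the MGE. edgeR called 0 of 16495 genes (0.0%) for a difference of the age change between MGE and CGE, with 1794 at an unadjusted p under 0.05 (10.9%; 6.35% higher and 4.52% lower) and a smallest adjusted p of 0.0947. DESeq2 called 1519 (9.6%), with 1120 higher (7.08%) and 399 lower (2.52%). Hmga2 averaged 0.0433 CPM in CGE at E14.5 and 21.5 CPM at E12.5, a change whose difference from that of the MGE was 3.58 on the log2 scale (p = 0.0567). Ccnd1 averaged 8.36 CPM in CGE at E14.5 and 73.8 CPM at E12.5 (difference 0.95, p = 0.355), and Olig2 4.11 CPM at E14.5 and 17.2 CPM at E12.5 (difference 0.35, p = 0.806). Lhx6, at 285.4 CPM in CGE at E14.5 and 70.4 CPM at E12.5, had a higher mean at the later age there too, and a difference from the MGE was not detectable (p = 0.627). Without chips 180, 181, 191 and 192 the difference was 4.50 for Hmga2 (unadjusted p = 0.00691), 1.67 for Ccnd1 (p = 0.0212) and -1.85 for Lhx6 (p = 0.0381).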

How the data were processed

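The authors deposited read counts per gene for each cell. Per the submitters' processing notes, the tools were CASAVA, FastQC, STAR 2.4.0, SAMtools and HTSeq 0.6.1, with build mm9; their settings are not given in the sources used here. Reads carry no molecular identifiers, so PCR copies count. Gene names were matched for 32620 of 37310 identifiers, and the deposited normalized table was not used. Counts were summed per chip, or per chip and class (at least 10 cells), and tested with edgeR 4.0.16 (TMM, filterByExpr, quasi-likelihood test with region as a term, Benjamini-Hochberg threshold 0.05) in R 4.3.3, with DESeq2 1.42.0 and limma 3.58.1 as alternatives. Fold changes are log2, E14.5 over E12.5. Clusters came from scanpy 1.11.5 (2000 variable genes, 30 components, 15 neighbours, Leiden resolution 1) and were named where a marker score reached 0.15 and led by 0.15. The edgeR step was tested on simulated data. Apart from the genes set to change, those data gave all chips the same mix of RNA and all genes the same spread. They therefore do not cover chips as uneven as these. The text names 17 fixed genes (1 further fixed gene is not reported here) and, called genes being absent, others said to be chosen after their values were seen. Members and 27 gene lists were chosen with earlier results of these data known.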

Additional observations from a re-analysis of the deposited data

Results flagged for a closer look

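In 15 of 62 sets of chip values tested, 1 chip stood far from the others of its group in the all-cell level of a gene. Chance alone gives about 1 in 20 for independent sets of normally distributed values. The CPM values were not log-transformed here, and their distribution was not tested. These sets were not independent, since they reuse the same chips and genes of a chip share its scaling. The E14.5 group also joins dMGE and vMGE chips. No difference between regions was flagged. Among the E14.5 chips, chip 192 stood apart for Nkx2-1 (2000 CPM, the nearest other chip 394) and Lhx6 (2980.0 CPM, nearest 430.0). Chip 191 stood apart for Sox6 (1160.0 CPM, nearest 215), Npy (3970.0 CPM, nearest 662) and Igf2bp1 (110.0 CPM, nearest 22.7). Chip 193 stood apart for Sst (29.4 CPM, nearest 0.172) and Hmga2 (1.37 CPM, nearest 0.0205). Among the vMGE chips of E12.5, chip 180 was the one each time, with 1830.0 CPM of Nkx2-1 (nearest 367), 532 of Sox6 (nearest 295), 951 of Nfia (nearest 128), 1060.0 of Nfib (nearest 424), 195 of Olig2 (nearest 91.3) and 2270.0 of Top2a (nearest 944). Among the dMGE chips of E12.5, chip 176 stood apart for Sst (186 CPM, nearest 33.4) and chip 170 for Top2a (1510.0 CPM, nearest 679).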

How the results depend on the processing

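Calls depended on the tool and the chips. In all cells edgeR's 0 calls became 1891 with DESeq2, 98 with no filter on low counts, 960 with no region term, 108 with all E14.5 MGE chips of the series and 4 with late CGE chips in the fit. In progenitor-like cells the count was 697 with DESeq2, 5 with limma, 1 with thinned cells and 1 at Leiden resolution 0.5, and in neuron-like cells 528 with DESeq2, 4 with limma, 1 with thinned cells and 356 with all E14.5 MGE chips. In both classes that last setting also took cells from a clustering of the whole series, so chips and classes changed together. The difference between vMGE and dMGE had 940 calls and that between MGE and CGE 1519 with DESeq2. Leaving out 1 chip at a time gave 0 to 1 calls in all cells (1 without chip 177), 0 to 1 in progenitor-like cells (1 without chip 184), 0 to 0 in neuron-like cells, 0 to 36 for vMGE against dMGE (36 without chip 193) and 0 to 4 for MGE against CGE (4 without chip 193, 3 without 194, 1 without 177). The causes were not tested. In the same joint change of chips and classes, Nfib, Sox6 and Tubb3 turned to 1.45, 1.14 and 2.27 in neuron-like cells. Of the 17 genes' values, 74 of 578 in all cells, 56 of 543 in progenitor-like and 58 of 508 in neuron-like cells had the opposite sign. With chips numbered 191 and above alone, the median log2 fold change over all genes turned from -0.34 to 0.14 in all cells. It turned from -0.40 to 0.09 in progenitor-like and from -0.20 to 0.61 in neuron-like cells, and the gene lists were not summarized in that fit. The neuron-like share differed by 23.1 points at Leiden resolution 0.5 (exact p = 0.0641), 10.4 at resolution 2 (p = 0.480), 29.2 with stricter cell filters (exact p = 0.0513), 28.3 without chips under 50 cells (exact p = 0.0659), and 11.7 to 28.3 with 1 chip left out. Clusters without called genes were not run, since none was called. No paired analysis was possible because chips of the 2 ages share no replicate number.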
